A study of Sus scrofa with 12 samples.

Results

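The genes described here encode the subunits of the mitochondrial respiratory chain, cytochrome c and the ATP synthase in pig liver. They were taken by symbol, as every annotated gene of the array whose name equals CYC1 or CYCS or starts with a listed prefix. The prefixes were NDUFA, NDUFB, NDUFC, NDUFS, NDUFV, SDHA, SDHB, SDHC, SDHD, UQCR, COX4, COX5, COX6, COX7, COX8 and ATP5. This gave 60 genes of 13755 annotated on the array, represented by 95 of its 47845 probe sets, and each gene was read through the probe set with the highest mean over the 12 arrays. By complex there were 25 subunits of complex I, 3 of complex II, 2 of complex III, cytochrome c itself, 8 of complex IV and 14 of complex V. The prefixes also took in 7 proteins that are not subunits, which are kept as a group of their own. None of the 26 listed symbols of mitochondrially encoded subunits was named by the annotation, and subunits such as CYC1, SDHC, NDUFV1 and COX4I1 were not analysed here.

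The respiratory chain passes electrons from NADH through complex I, or from succinate through complex II, to ubiquinone, then through complex III and cytochrome c to complex IV, where oxygen is reduced. Complexes I, III and IV pump protons across the inner mitochondrial membrane, and complex V, the ATP synthase, uses their return to make ATP. In liver this pathway is the main source of ATP for gluconeogenesis, urea synthesis and lipid synthesis. Because mitochondrial respiration sets how much of the feed energy is turned into ATP, its genes are often examined in animals that differ in feed efficiency.

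Liver of 12 pigs (Sus scrofa) was taken at day 140, and its RNA was measured on 1 Affymetrix snowball array for each animal. According to the labels, 6 pigs had low residual feed intake (RFI) and 6 had high RFI, and each class was made up of 3 males and 3 females. RFI is the part of feed intake that growth and body measures do not account for, so that low RFI stands for high feed efficiency. All pigs were crossbred offspring of Large White × Landrace sows and Hylean Maxgro sires, received the same finisher diet ad libitum, were given no other treatment that the labels name, and were slaughtered after feeding. The study chose siblings of opposite class, but litter and sibling are not in the labels. Pairs entered no comparison below except an alternative fit with assumed pairs. A pig is written as P with its label number. The pigs are separate animals, and each p-value sets a difference against the spread between them. Apart from the fit with assumed pairs, the tests treated the pigs as independent, although the study chose siblings.

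The values were log2 intensities between 0.39 and 14.26, with array medians of 3.48 to 3.53, and any pair of arrays correlated at 0.976 to 0.985 across probe sets. P317, a high RFI pig, lay at -28.15 on the first principal component (14.8% of the variance), among the low RFI pigs. The differences of NDUFV3, NDUFS6, NDUFS4, SDHB and COX6B are also given without it. In each of these genes P317 lay on the low RFI side of the high RFI mean, so that leaving it out had to widen the difference. The values without P317 are therefore no separate evidence of a class difference. The 7 hepatocyte markers had a summed level of 15.88 to 15.99 (log2) in low RFI pigs and of 15.90 to 15.95 in high RFI pigs, and none had an unadjusted p under 0.05. In other marker lists that threshold was passed in limma by CD163 (1 of 3 macrophage markers, 0.68 higher in low RFI), RGS5 (1 of 5 stellate cell markers, 0.71 higher) and PTPRC (1 of 5 lymphocyte markers, 0.41 higher). Over all genes 9.13% passed it. In an exact permutation test, described below, p was 0.0498 for CD163 and 0.0844 for both RGS5 and PTPRC. The median difference was 0.07 in the macrophage list, -0.02 in the stellate cell list and -0.01 in the lymphocyte list. The summed level of the macrophage list ranged from 10.25 to 11.02 in low RFI and from 10.08 to 10.59 in high RFI pigs, that of the stellate cell list from 9.20 to 10.79 and from 9.52 to 9.99, and that of the lymphocyte list from 7.71 to 8.25 and from 7.71 to 8.24. Their part in the results below was not tested. In bulk liver, fewer cells of a type and less RNA per cell cannot be told apart.

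GC-rich background control probe sets, those of GC count 17 to 24, averaged 6.55 ± 0.08 in low RFI pigs and 6.69 ± 0.11 in high RFI pigs (SD, n = 6), a difference of -0.13, whereas the GC-poor ones, of GC count 3 to 16, differed by -0.02. Members were mostly well above the dim end of the array. Their median level was 7.39, compared with 5.07 over all genes, and 7 of them (11.7%) had a mean under 4, compared with 31.5% of all genes. The levels of 9 members were below 4.22, the highest value of a GC-poor background probe set, and they included NDUFA4, ATP5H and CYCS. The GC-rich background probe sets had means from 4.71 to 7.67, a range that held the median level of the members. COX6B (5.96) and NDUFS1 (6.76) lay within that range, and NDUFV3 (8.05), NDUFS6 (8.45) and ATP5J2 (7.94) above it.

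The comparison of the RFI classes asked whether hepatic transcripts of oxidative phosphorylation differed with feed efficiency. No member was called. Differences are given as low RFI minus high RFI on the log2 scale by the class labels of the samples, and this direction runs opposite to the sign of the fold changes in the paper, since SQLE, for example, was higher in the pigs labelled low RFI. Which of these is right was not settled here, and every direction below is that of the labels. Called means a q-value (Storey's estimate of the false discovery rate over all 47845 probe sets) under 0.30 in limma. Over the whole array 15 probe sets were called (0.0314%), 13 of them higher (0.0272%) and 2 lower (0.00418%) in low RFI, and none had a Benjamini-Hochberg adjusted p under 0.05. The lowest q among the 60 members was 0.534. At an unadjusted limma p under 0.05 there were 5 members, or 8.33%, against a background of 9.13% of all genes and 7.29% of all probe sets. NDUFV3, COX6B, NDUFS6 and ATP5J2 were the 4 on the lower side in low RFI (background 4.45% of genes) and NDUFS1 was the 1 on the higher side (background 4.68%). The share of members past this threshold was thus close to that of the array. This fit kept all probe sets, whereas the study left out those of low or high SD. With that filter on SD, 952 of 35844 probe sets were called (2.66%). No member was among them, and the lowest q of the 41 members kept was 0.326. For single genes an exact permutation test over the 924 splits of the pigs into equal classes is given beside q, two-sided and unadjusted. Its p was under 0.05 in the 5 members named above and in UQCRB. The test was not run over all genes, so that this count has no background share.

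The differences were small. They ranged from -0.34 in NDUFV3 to 0.26 in NDUFS4, so that the largest corresponded to 1.27-fold, and their median was -0.06, compared with -0.02 over all genes. The mean was lower in low RFI pigs in 39 members and higher in 21. That made 65% on the lower side, compared with 55.1% of all genes. In 55 members (91.7%) the difference lay within 0.25 in either direction, which held for 84.5% of all genes. The 95% confidence interval lay inside ±0.5 (1.41-fold) in 51 members and inside ±0.25 (1.19-fold) in 12, so that for most members a change of 1.41-fold lay outside the interval but one of 1.19-fold did not. The standard error of a difference had a median of 0.10. The values of the classes overlapped in every member, and 0.378% of all genes had classes that did not overlap.

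**Figure D1:**
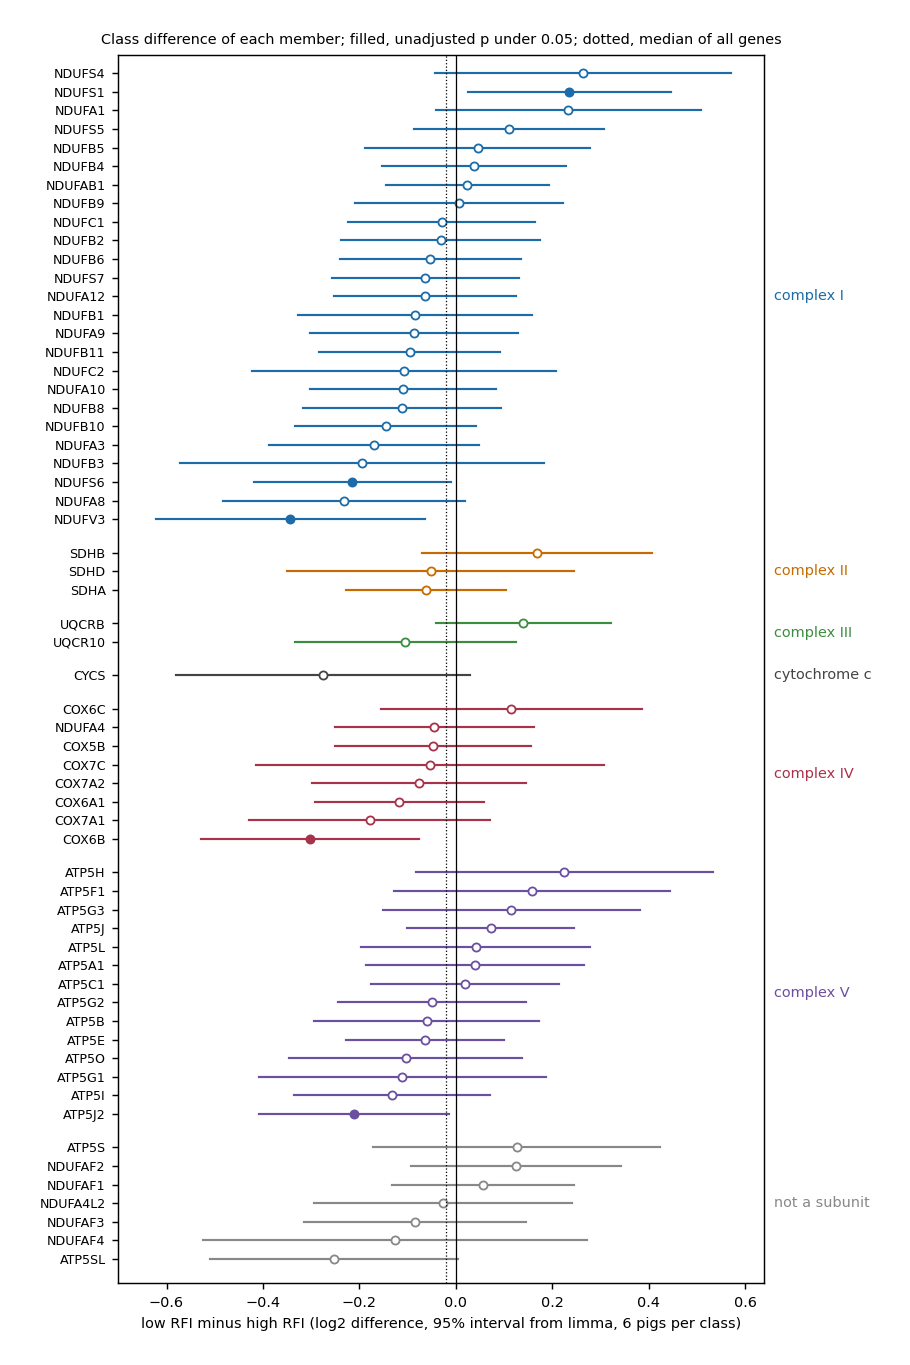
Difference in log2 intensity between low and high RFI pigs (x axis) for each of the 60 members (y axis, grouped by complex), with the 95% confidence interval from limma, 6 pigs per class. Filled points mark the 5 members with an unadjusted p under 0.05, and the dotted line marks -0.02, the median over all genes.

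Complex I, the NADH dehydrogenase, had a median difference of -0.06 over its 25 subunits, of which 17 were lower and 8 higher in low RFI pigs. It held 3 of the 5 members with an unadjusted p under 0.05. NDUFV3 is an accessory subunit next to the NADH-binding site. Its level (lowest, median and highest pig) was 7.68, 7.88 and 8.11 in low RFI and 7.83, 8.24 and 8.54 in high RFI. All 6 low RFI pigs were below the high RFI mean, while P303 (7.83), P317 (8.02) and P304 (8.09) of the high RFI class lay within the low RFI range. The difference was -0.34 (95% CI -0.62 to -0.06, exact permutation p = 0.0325, limma q = 0.544), or 1.27-fold higher in high RFI, and -0.39 without P317 (limma q = 0.325). A second NDUFV3 probe set, at a mean of 6.99, gave -0.29 (exact permutation p = 0.0152).

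NDUFS6, a zinc-binding accessory subunit of the same module, was at 8.15, 8.34 and 8.49 in low RFI pigs and at 8.29, 8.61 and 8.69 in high RFI pigs. All low RFI values were below the high RFI mean, and of the high RFI pigs only P317 (8.29) lay within the low RFI range. The difference was -0.21 (95% CI -0.42 to -0.01, exact permutation p = 0.0303, limma q = 0.589), and -0.27 without P317 (limma q = 0.3002). With the GC-rich background as a covariate it was -0.04, and without the covariate it passed the unadjusted threshold in 4 of the 12 fits that left out 1 pig.

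NDUFS1, the largest core subunit, which carries iron-sulfur clusters on the path of the electrons, differed in the other direction. The low RFI pigs were at 6.68, 6.91 and 7.10 and the high RFI pigs at 6.38, 6.67 and 6.77. Each low RFI pig was above the high RFI mean, with P309 and P324 of the low RFI class inside the high RFI range, and P302 was the lowest of all pigs. The difference was 0.24 (95% CI 0.02 to 0.45, exact permutation p = 0.0238, limma q = 0.577), or 1.18-fold higher in low RFI. With the GC-rich background as a covariate the differences of NDUFS1 and NDUFV3 were 0.16 and -0.28, both with an unadjusted limma p over 0.05. NDUFS4, an accessory subunit whose loss causes Leigh syndrome in humans, had the highest difference of any member, 0.26 (95% CI -0.04 to 0.57, exact permutation p = 0.115). Its values ran from 6.48 to 7.08 in low RFI and from 6.23 to 7.04 in high RFI pigs, and P317 (7.04) alone stood among the highest low RFI pigs. Without P317 the difference was 0.37 (limma q = 0.306). NDUFS7, the core subunit with the last iron-sulfur cluster before ubiquinone, is read by 3 probe sets that disagreed: the brightest gave -0.06 and the others -0.27 (exact permutation p = 0.0368) and 0.05.

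The rest of complex I comprised accessory subunits, none with an unadjusted p under 0.05. Their largest differences were -0.23 in NDUFA8 (95% CI -0.48 to 0.02), 0.23 in NDUFA1 (95% CI -0.04 to 0.51) and -0.20 in NDUFB3 (95% CI -0.57 to 0.18). The NDUFA1 probe set had a mean level of 3.49, below 4.22, and the second one of this gene, at 3.13, gave -0.01. NDUFB3 varied most among the complex I subunits in the low RFI class, from 4.81 in P324 to 5.81 in P307. The 3 probe sets of NDUFB8 were all lower in low RFI, by at most 0.11. NDUFAB1, the mitochondrial acyl carrier protein, which also serves fatty acid and lipoate synthesis, was at 7.08 ± 0.07 in low RFI and 7.06 ± 0.10 in high RFI pigs (SD, n = 6).

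**Figure D2:**
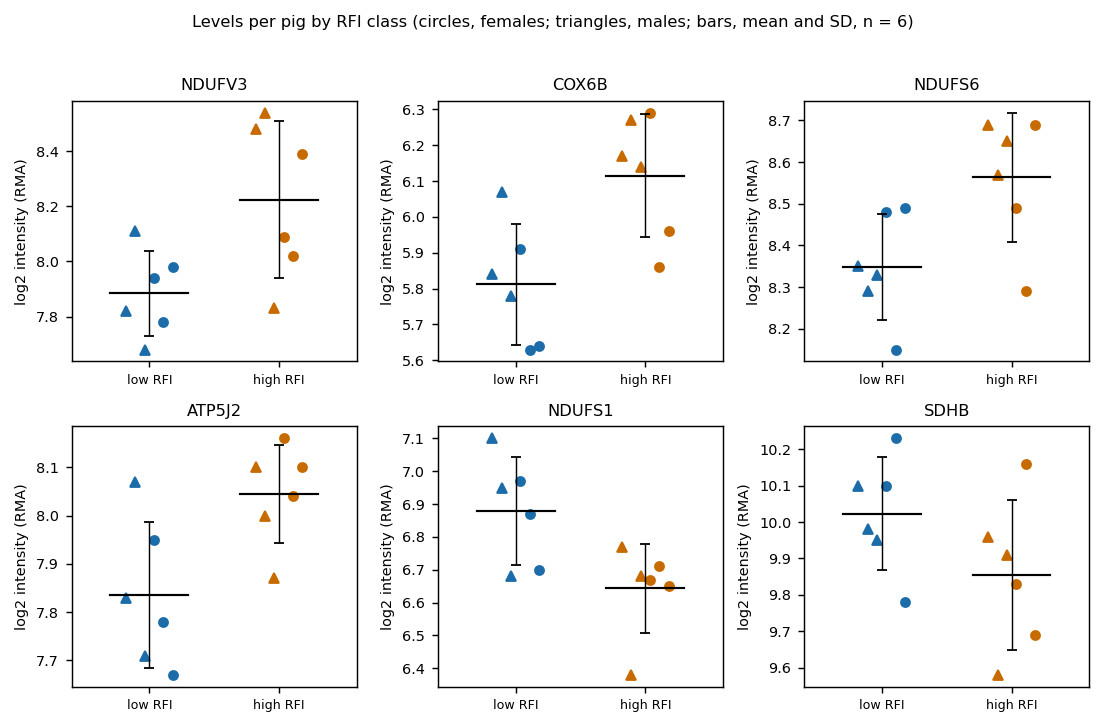
Log2 intensity (y axis) of NDUFV3, COX6B, NDUFS6, ATP5J2, NDUFS1 and SDHB in each pig by RFI class (x axis), with circles for females, triangles for males, and bars for the mean and SD (n = 6). The classes overlap in each panel, and the low RFI mean is the lower one in NDUFV3, COX6B, NDUFS6 and ATP5J2 and the higher one in NDUFS1 and SDHB.

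Complex II, succinate dehydrogenase, is also an enzyme of the citric acid cycle and is encoded entirely in the nucleus. The median difference of its 3 subunits was -0.05. SDHB, the iron-sulfur subunit, was at 9.78, 10.04 and 10.23 in low RFI pigs and at 9.58, 9.87 and 10.16 in high RFI pigs. In 5 of the 6 low RFI pigs it was above the high RFI mean, but P317 (10.16) of the high RFI class was the second highest of all pigs and P324 (9.78) of the low RFI class was low. The difference was 0.17 (95% CI -0.07 to 0.41, exact permutation p = 0.141), and 0.23 without P317 (limma q = 0.424). All 6 SDHB probe sets gave a higher mean in low RFI, by 0.04 to 0.17. SDHA, the flavoprotein that oxidizes succinate, had the opposite sign in all 4 of its probe sets, from -0.08 to -0.03. Its level was 10.02 ± 0.10 in low RFI and 10.09 ± 0.05 in high RFI pigs (SD, n = 6), and the 95% CI of the difference was -0.23 to 0.10. SDHD, a membrane anchor, was at 7.40 ± 0.30 and 7.45 ± 0.19. No subunit of complex II passed even the unadjusted threshold, and the probe sets of SDHA and SDHB read the same transcripts, so that they are not replicates.

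Complex III, the cytochrome bc1 complex, was represented by a pair of small subunits with differences of opposite sign and a median of 0.02. UQCRB, which lies near a ubiquinone site, was at 6.81, 6.93 and 7.08 in low RFI pigs and at 6.65, 6.76 and 6.94 in high RFI pigs. All 6 low RFI pigs were above the high RFI mean, and the ranges overlapped. The difference was 0.14 (95% CI -0.04 to 0.32, exact permutation p = 0.0498, unadjusted limma p over 0.05), with 0.10 in its second probe set. UQCR10 differed by -0.10 (95% CI -0.33 to 0.13). CYCS, the soluble carrier between complexes III and IV, which also triggers apoptosis when released, is a single gene on this array. It was at 2.08, 2.21 and 2.57 in low RFI and at 2.10, 2.50 and 2.94 in high RFI pigs, levels below 4.22, the highest value of a GC-poor background probe set. The difference was -0.28 (95% CI -0.58 to 0.03, exact permutation p = 0.113).

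Complex IV, cytochrome c oxidase, had 7 subunits lower and 1 higher in low RFI pigs, with a median of -0.06. COX6B, the subunit that faces the intermembrane space and bridges the monomers of the dimer, had the lowest p of all members. The low RFI pigs were at 5.63, 5.81 and 6.07 and the high RFI pigs at 5.86, 6.15 and 6.29. All 6 low RFI pigs were below the high RFI mean, and P317 (5.86) and P318 (5.96), females of the high RFI class, lay inside the low RFI range. The difference was -0.30 (95% CI -0.53 to -0.08, exact permutation p = 0.0152, limma q = 0.534), or 1.23-fold higher in high RFI. Without P317 it was -0.35 (limma q = 0.255) and was called, in a fit that called 2.81% of all probe sets. With the GC-rich background as a covariate it was -0.27, with an unadjusted limma p over 0.05.

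Some subunits of complex IV have isoforms that differ between tissues. COX7A1, known as the heart and muscle isoform, was at 8.54 ± 0.12 in low RFI and 8.72 ± 0.25 in high RFI pigs (SD, n = 6), with P318 the highest at 9.14. COX7A2, known as the liver isoform, was at 8.28 ± 0.22 and 8.36 ± 0.07. Their differences, -0.18 (95% CI -0.43 to 0.07) and -0.08 (95% CI -0.30 to 0.15), were within the spread of the pigs. COX6A1, the liver isoform of another small subunit, differed by -0.12 (95% CI -0.29 to 0.06), and COX5B, a zinc-binding subunit, by -0.05 (95% CI -0.25 to 0.16). COX6C was the only subunit of complex IV with a higher mean in low RFI, by 0.11 (95% CI -0.16 to 0.39), with P310 the highest at 9.24. NDUFA4, once assigned to complex I and now to complex IV, had a mean level of 1.69, below the same limit, and a difference of -0.04 (95% CI -0.25 to 0.16).

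Complex V, the ATP synthase, was split evenly, with 7 subunits lower and 7 higher in low RFI pigs and a median of -0.02. ATP5B, the catalytic beta subunit, was at 10.83 ± 0.19 in low RFI and 10.89 ± 0.16 in high RFI pigs (SD, n = 6), a difference of -0.06 (95% CI -0.29 to 0.17). ATP5A1, the alpha subunit, differed by 0.04 (95% CI -0.19 to 0.27), and ATP5C1, the rotating gamma subunit, by 0.02 (95% CI -0.18 to 0.21) in the brightest of its 4 probe sets. The other ATP5C1 probe sets gave -0.25 (exact permutation p = 0.0736), -0.09 and -0.04, the last 2 at mean levels below 4.22. ATP5J2, subunit f of the membrane part, was the only one with an unadjusted p under 0.05. The low RFI pigs were at 7.67, 7.81 and 8.07 and the high RFI pigs at 7.87, 8.07 and 8.16. Of the low RFI pigs 5 were below the high RFI mean, and P308 (8.07) was above it. The difference was -0.21 (95% CI -0.41 to -0.02, exact permutation p = 0.0216, limma q = 0.586), and it passed the unadjusted threshold in 4 of the 12 fits that left out 1 pig.

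The 3 genes ATP5G1, ATP5G2 and ATP5G3 encode the same mature c subunit of the rotor ring. Their differences were -0.11 (95% CI -0.41 to 0.19), -0.05 (95% CI -0.24 to 0.14) and 0.12 (95% CI -0.15 to 0.38), so that they did not share a sign. P307 was the highest low RFI pig in ATP5G1 (9.04) and the highest of all pigs in ATP5G3 (8.02), and P302 of the high RFI class was the highest in ATP5G1 (9.34). The peripheral stalk subunits ATP5F1 and ATP5J were higher in low RFI by 0.16 (95% CI -0.13 to 0.44) and 0.07 (95% CI -0.10 to 0.24), the latter with the same sign in all 4 of its probe sets. ATP5H, another stalk subunit, gave 0.23 at a mean level of only 1.57.

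Among the 7 proteins that are not subunits the median was -0.03, and none had an unadjusted p under 0.05. ATP5SL, known as an assembly factor of the membrane arm of complex I, was at 7.21 ± 0.17 in low RFI and 7.47 ± 0.24 in high RFI pigs (SD, n = 6), a difference of -0.25 (95% CI -0.51 to 0.0046, exact permutation p = 0.0584). ATP5S, a coupling factor, gave 0.13 (95% CI -0.17 to 0.42). The complex I assembly factors NDUFAF1 to NDUFAF4 ranged from -0.13 to 0.13. Both ends came from probe sets with mean levels below 4.22, those of NDUFAF4 (3.34) and NDUFAF2 (3.14). NDUFA4L2, the paralog of NDUFA4 that is induced by hypoxia in human cells, gave -0.03 (95% CI -0.29 to 0.24) at a mean level of 4.02, also below that limit.

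More than 1 probe set was available for 21 of the 60 genes. In 10 of these all probe sets had the same sign, and in 11 the signs were mixed. Of the 35 probe sets that were not the brightest of their gene, 2 had an unadjusted p under 0.05, those of NDUFV3 and NDUFS7 given above, both lower in low RFI. The widest disagreement was in ATP5E, the epsilon subunit, whose brightest probe set gave -0.06 and another 0.46.

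The pigs of the low RFI class differed more among themselves than those of the high RFI class when the members were averaged. For each pig, the mean over the 60 members was taken after subtracting each gene's mean over the 12 pigs. In the low RFI class the lowest value was -0.13 in P324 and the highest 0.09 in P310, with an SD of 0.080. In the high RFI class the values ran only from -0.01 in P318 to 0.04 in P301, with an SD of 0.020. The ratio of the SDs was 3.99, which is given without a test. Over all annotated genes the SDs of the pig means were 0.012 in low RFI and 0.0076 in high RFI pigs. Each of complexes I to V had the larger SD in low RFI. The 7 proteins that are not subunits (0.086 in low RFI and 0.103 in high RFI) and cytochrome c had the larger SD in high RFI. For single genes the contrast was smaller. The median SD of a member was 0.17 in low RFI and 0.14 in high RFI pigs, and 33 of 60 members (55%) had the larger SD in low RFI, compared with 52.5% of all genes.

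P310, a low RFI female, was above the gene's mean in 46 of the 60 members and was the highest of the 12 pigs in 14 of them, which held for 7.35% of all genes. P324, also a low RFI female, was above the mean in only 7 of 60 members and was the lowest pig in 12 of them, compared with 8.91% of all genes. P323 was above the mean in 17 members, P309 in 23 and P307 in 37. The pattern ran across complexes: P310 was at 0.12 in complex I and 0.12 in complex V, and P324 at -0.14 and -0.09. The mean over all genes lay between -0.02 and 0.01 in each low RFI pig. GC-rich background probe sets averaged 6.55 in P310 and 6.67 in P324, values whose part in this pattern was not tested.

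**Figure D3:**
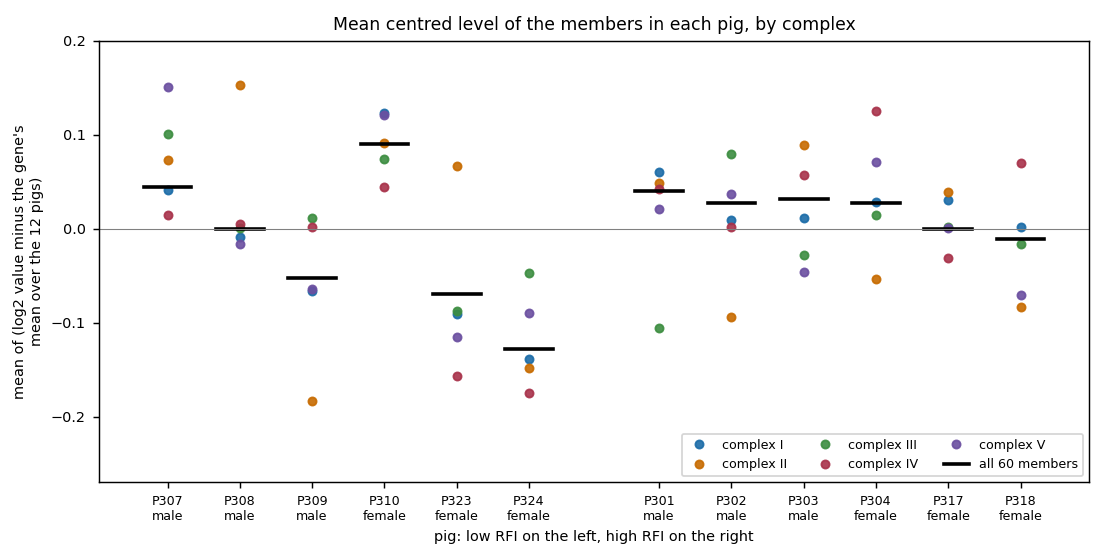
Mean over the members of the log2 intensity minus each gene's mean over the 12 pigs (y axis) in each pig (x axis, low RFI on the left). Black bars show all 60 members and coloured points complexes I to V. The low RFI pigs spread from -0.13 (P324) to 0.09 (P310), the high RFI pigs from -0.01 to 0.04.

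Sex was compared with RFI class as a covariate, 6 females against 6 males. No member was called. The array held 19 called probe sets (0.0397%). COX7C, a small subunit of complex IV, was the only member with an unadjusted p under 0.05, against a background of 7.08% of all genes. The low RFI females were at 5.91, 5.96 and 6.00 and the high RFI females at 6.10, 6.13 and 6.31. The low RFI males were at 6.37, 6.68 and 6.85 and the high RFI males at 6.41, 6.54 and 6.60. Every male was above every female in both classes, and sexes that did not overlap were found in 0.458% of all genes. The difference, female minus male, was -0.50 (95% CI -0.73 to -0.27, exact permutation p = 0.005, the smallest that 400 splits within classes can give, limma q = 0.381), or 1.42-fold higher in males. Over all members the median difference between the sexes was -0.02, with 27 members higher and 33 lower in females.

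**Figure D4:**
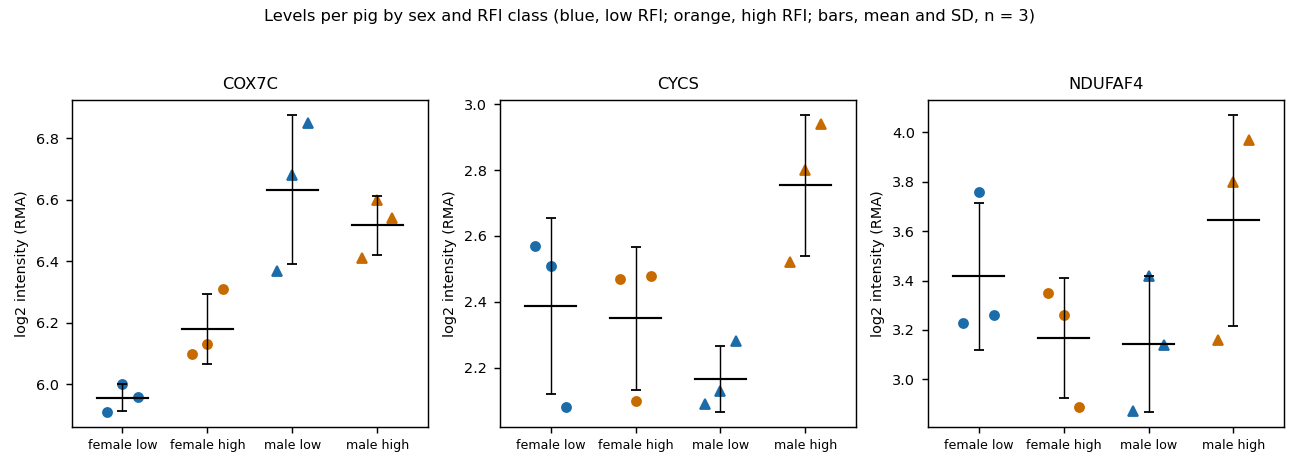
Log2 intensity (y axis) of COX7C, CYCS and NDUFAF4 in each pig by sex and RFI class (x axis), with blue for low RFI, orange for high RFI, and bars for the mean and SD (n = 3). All 6 males are above all 6 females in COX7C. In CYCS the 3 high RFI males are above the 3 low RFI males, a separation whose share over all genes was not computed.

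The interaction of sex with RFI class tested whether the class difference was the same in both sexes. No probe set of the array was called (0%), and an unadjusted p under 0.05 was found in 2 members, CYCS and NDUFAF4, against 4.25% of all genes. CYCS differed between the classes by 0.04 in females and by -0.59 in males (limma interaction q = 0.962). The low RFI males were at 2.09, 2.13 and 2.28 and the high RFI males at 2.52, 2.80 and 2.94, whereas the females of both classes ran over the same range. The males of the classes did not overlap, but the share of all genes with such a separation among males was not computed. NDUFAF4, an assembly factor of complex I, differed by 0.25 in females and -0.50 in males (limma interaction q = 0.962). The mean levels of both genes were below 4.22. The class difference had the same sign in both sexes in 42 members, of which 28 were lower and 14 higher in low RFI, and the opposite sign in 18. The difference of NDUFV3 was -0.27 in females and -0.42 in males, that of COX6B -0.31 and -0.30, and that of NDUFS1 0.17 and 0.30.

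Other genes of mitochondrial energy metabolism were compared in the same fit, and none was called. Of 40 listed assembly factors 15 were on the array, with 1 higher and 3 lower in low RFI at an unadjusted limma p under 0.05 and a median of -0.10. Over all genes 4.68% were higher and 4.45% lower at that threshold. COX10, which makes a precursor of the haem A of complex IV, ran from 4.79 to 5.44 in low RFI and from 4.91 to 6.14 in high RFI pigs, a difference of -0.55 (95% CI -0.93 to -0.18, exact permutation p = 0.013, limma q = 0.513). HIGD2A, which takes part in the assembly of complex IV, gave -0.29 (exact permutation p = 0.00216, the smallest that 924 splits can give, limma q = 0.519). Its low RFI pigs (8.70 to 9.11) were all below its high RFI pigs (9.14 to 9.50), and 0.378% of all genes had classes that did not overlap. SCO2, which delivers copper to complex IV, gave -0.30 (exact permutation p = 0.0173, limma q = 0.534). LRPPRC, which stabilizes mitochondrial mRNAs, was on the other side, with a difference of 0.38 (exact permutation p = 0.0325, limma q = 0.546). The study, with its filter on SD, listed the same COX10 probe set and a different LRPPRC probe set among its altered transcripts.

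Of 20 listed regulators of mitochondrial biogenesis 14 were on the array, with a median difference of 0.07. The 1 member with an unadjusted p under 0.05 was PPARGC1A, a coactivator of genes for oxidative phosphorylation that in liver also drives gluconeogenesis. It ran from 5.74 to 6.99 in low RFI pigs and from 4.62 to 6.00 in high RFI pigs. All 6 low RFI pigs were above the high RFI mean, and the ranges overlapped. The difference was 0.89 (95% CI 0.38 to 1.40, exact permutation p = 0.00649, limma q = 0.443), on the opposite side of zero to the median of the respiratory chain members.

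The citric acid cycle list (12 of 14 on the array, median -0.05) had no gene with an unadjusted limma p under 0.05. The same held for a list of other electron entry enzymes (10 of 12, median 0.02), in which SUOX had an exact permutation p of 0.0411. Of the mitochondrial import and outer membrane list 24 of 30 were on the array, with a median of -0.05 and 2 genes lower in low RFI, TIMM17A by -0.51 (exact permutation p = 0.0909, limma q = 0.586) and TIMM8B by -0.27 (exact permutation p = 0.0541, limma q = 0.592), both parts of the inner membrane import machinery, against a background of 4.45% of all genes. ATPIF1, the inhibitor of the ATP synthase and the only one of 4 listed regulators on the array, gave -0.15 (limma q = 0.674). In the citric acid cycle list the mean centred level was -0.17 in P324 and 0.10 in P310, and in the assembly factors -0.17 and 0.11. P309 was the lowest pig in both lists, at -0.18 and -0.23. The highest was P307 in the citric acid cycle list (0.12) and P302 in the assembly factors (0.12).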

How the data were processed

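Liver RNA of 12 pigs was measured on 1 array each. Scanning by the authors used GCOS 1.1.1, and their RMA normalization corrected the background, gave all arrays the same distribution and summarized probes, so the deposited values are log2 intensities per probe set. For extraction and labelling, the study's methods (TRI reagent with NucleoSpin, WT Plus kit) and the labels (Qiazol with RNeasy, Ambion WT kit) differ. No raw intensities were used here.

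RFI classes, from the labels, were compared over all 47845 probe sets with limma 3.58.1 in R 4.3.3 without the study's filter on SD, which was an alternative. Storey's q was computed over all probe sets (lambda from 0.05 to 0.9) and called under 0.30. Sex and its interaction with class were fitted likewise. Exact permutation tests for single genes were added after results were seen. The fits were tested on simulated data. Precision is limited by the 6 arrays of each class.

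Gene names come from the annotation of the platform, in which 26426 probe sets have a single symbol each. Named are members with an unadjusted p under 0.05, the extremes of each complex, subunits at redox or catalytic sites, isoforms with a paralog, members whose probe sets disagreed with an unadjusted p under 0.05 in one, and up to 3 genes of each related list by p. Others, such as NDUFA8, NDUFA1, NDUFB3, NDUFB8, NDUFAB1, COX7C, NDUFAF4, ATP5C1, ATP5F1, ATP5J, ATP5E, LRPPRC and ATPIF1, were chosen after their values were seen. The members, lists and tests were chosen with earlier results of these data known. Alternatives changed the filter, covariates, sexes, variance model, array weights, scaling, gene representation, features tested and background, or left out 1 pig at a time. One with assumed pairs of pigs as a block was added after results were seen.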

Additional observations from a re-analysis of the deposited data

Results flagged for a closer look

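In the 56 groups formed by the 28 members named by rule and the RFI classes, 2 groups of 6 pigs had 1 pig whose gap to the nearest of the others, as a share of the range of the group, exceeded Dixon's critical value at the 95% level. Chance gives such a pig in about 5% of groups. ATP5G1, a gene for the c subunit of the ATP synthase, was at 9.04 in P307, while the other low RFI pigs lay between 8.56 and 8.69 (share 0.725). NDUFS1, a core subunit of complex I, was at 6.38 in P302, while the other high RFI pigs lay between 6.65 and 6.77 (share 0.689). Without P302 the difference of NDUFS1 was 0.18 (limma q = 0.792).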

How the results depend on the processing

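No member was called at a q under 0.30 in either direction under any alternative but these 2. Without P317, COX6B was called (q = 0.255), in a fit that called 1345 probe sets. After scaling to RPL10 and RPL32 all 60 members were called lower, but so were all 47845 probe sets, of which 183 had an unadjusted p under 0.05, so that the q-values carry no information there. The RPL10 probe set had an SD of 1.61 within classes. That scaling moved the median of all genes to -0.37 and those of the members to -0.40, of complex I to -0.41, II to -0.40, III to -0.33, IV to -0.41 and V to -0.36, turned NDUFS1 to -0.11, and left 0 members on either side of an unadjusted p under 0.05.

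The count of members higher at that threshold (1) was 0 under the filter on SD, in males only and with the GC-rich background as covariate. The count of members lower (4) was 0 in females only and 2 with that covariate. The share of all probe sets at the threshold also moved, from 7.29% in the main fit to 3.69% in females only and 4.77% with that covariate. It was 8.74% under the filter on SD and 7.75% in males only. The filter on SD kept 41 members and moved complex III to -0.10, from UQCR10 alone. In females only, complex IV was at -0.16. With 1 pig left out, calls higher ranged from 0 to 0, calls lower from 0 to 1, members higher at the threshold from 0 to 2 and members lower from 2 to 6. Members higher were 0 without P302 or P307 and 2 without P303, P317 or P324. Members lower were 6 without P310 or P317 and 2 without P307. The share of all probe sets at the threshold was 9.67% without P317 and between 5.94% and 7.92% without any other pig. Over these fits the median ranged from -0.08 to -0.03 over the members, -0.09 to -0.03 in complex I, -0.09 to 0.05 in II, -0.0016 to 0.04 in III, -0.11 to -0.05 in IV and -0.05 to 0.01 in V. NDUFV3 and COX6B passed the unadjusted threshold in 12 of these 12 fits, NDUFS1 in 8. The causes were not tested. The labels pair no pigs. A replicate block was added after seeing the data, with 6 same-sex pairs guessed from how the pigs are numbered. Deviations from the class means correlated at 0.03 to 0.20 within these pairs, over 0.1 in 2 of them, and 10 of the 12 pigs correlated best with their own partner. Each pig was compared only with the 6 of the other class, and sex was not taken out of the deviations. These values therefore cannot show that the assumed pairs are siblings. The block raised the called probe sets from 15 to 137, called no member, and gave 2 members higher (NDUFS1 and NDUFS4) and 4 lower at the unadjusted threshold. Signals near background limit what NDUFA4, ATP5H and CYCS can show.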
